A study of Trichosurus vulpecula with 116 samples.

Results

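Troponin is the calcium switch of the thin filament in striated muscle, and the 8 genes that encode it (*TNNT1*, *TNNT2*, *TNNT3*, *TNNI1*, *TNNI2*, *TNNI3*, *TNNC1* and *TNNC2*) were read out of the possum RNA-sequencing table by gene symbol. All 8 were found, among 23816 annotated genes. The table holds 116 libraries from brushtail possums (*Trichosurus vulpecula*) of Dunedin, New Zealand. The levels below rest on 4 libraries of tissues with striated muscle, namely the heart and the muscle of Sandy, a male pouch young of 22 days postpartum (dpp), the tongue of Puku, the adult mother of Sandy, and the tongue of Sheila, a juvenile backrider of the same mother. Background came from 11 further tissues of Sandy. Replicated background came from livers (32 pouch young, 7 juvenile, 44 adult), 9 pouch young kidneys and 8 pouch young brains, which include those of Sandy. The labels age the pouch young livers from under 2 to 109 dpp, the kidneys from 10 to 85 dpp and the brains from 10 to 62 dpp. The labels name no treatment or genetic alteration. Per the study's methods most animals came from pest control, and some tissues from captive possums of another study. All of the samples were whole tissues, so fewer muscle cells and less troponin RNA per muscle cell cannot be told apart. The labels do not say which muscle was taken from Sandy.

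Troponin T anchors the complex to tropomyosin, troponin I holds back the interaction of actin and myosin, and troponin C binds calcium and relieves that block. In eutherian mammals each subunit has its own genes for slow skeletal, fast skeletal and cardiac fibres. *TNNT1* and *TNNI1* are the slow skeletal genes, *TNNT3*, *TNNI2* and *TNNC2* the fast skeletal genes and *TNNT2* and *TNNI3* the cardiac genes, while *TNNC1* serves both slow fibres and heart. Developing muscle is known for a looser division, with *TNNI1* in the fetal heart ahead of *TNNI3* and *TNNT2* in immature skeletal muscle.

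The possum genes lay in the paired order known from other mammals, a troponin I gene next to or near a troponin T gene on the same strand. On chromosome 2 of the assembly used for the counts (mTriVul1.pri), *TNNI3* (9525099 to 9530790, plus strand) ended 89 bp before *TNNT1* (9530880 to 9544503, plus strand). On chromosome 4, *TNNT2* (101708735 to 101737977, minus strand) and *TNNI1* (101786774 to 101798917, minus strand) were separated by *LAD1* and by the non-coding locus *LOC118848071*. On chromosome 6, *TNNT3* (282714669 to 282737939, minus strand) and *TNNI2* (282829182 to 282835663, minus strand) flanked *LSP1*. The troponin C genes stood alone, *TNNC1* on chromosome 9 (123266377 to 123272867, minus strand) and *TNNC2* on chromosome 3 (157488922 to 157493331, minus strand). None of the 8 spans overlapped another annotated gene.

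The 4 striated libraries held between 9328691 and 28569774 reads on genes, with the tongues shallower than heart and muscle. The 11 other single libraries held 17130171 to 32064469 reads, and livers, kidneys and brains 308137 to 115914844. Values are log2 CPM (reads relative to the library total) and were not divided by gene length. Levels are therefore compared between libraries for the same gene. Shares and ratios between genes are given in reads, and they also depend on transcript length, which was not corrected for. Each tissue of the single libraries was sequenced 1 time, and the intervals given with folds and shares are 95% intervals that cover counting error only. The tissue labels of the striated libraries went with the summed levels of their cardiac and skeletal markers. All 9 cardiac markers had more than 3 reads in heart, where they summed to 7824 CPM. In muscle 6 of the 9 were above 3 reads, with a sum of 57.8 CPM. In the adult tongue 5 were, with a sum of 293 CPM, and in the juvenile tongue 4, with 37.8 CPM. *MYL7*, *NPPA* and *NPPB* were at 0 reads in muscle and in both tongues. *NKX2-5* had log2 levels of 3.84 in the adult and 3.17 in the juvenile tongue against -2.84 in muscle, and *PLN* 4.67 and 3.92 against 1.20. All 9 skeletal markers found were above 3 reads in muscle, the adult tongue and the juvenile tongue, where they summed to 21679, 11645 and 6093 CPM. In heart 7 of the 9 were above 3 reads, with a sum of 1456 CPM led by *CKM* at a log2 level of 10.11, and *MYOD1*, a master gene of skeletal muscle, was at 0 reads. *KRT4*, a keratin of the mucosal lining, stood at a log2 level of 13.58 in the adult tongue and 13.72 in the juvenile tongue and at 0 reads in heart and muscle. *TP63*, the only other stratified epithelium marker found of the 7 listed, did not separate muscle from the tongues in this way. It was at 5.05 in muscle, 6.58 in the adult tongue and 5.27 in the juvenile tongue, and at 0 reads in heart. The libraries labelled small and large intestine were close to each other (Pearson r = 0.979 across genes), but differed by more than sampling noise and were kept as 2 libraries.

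**Figure D1:**
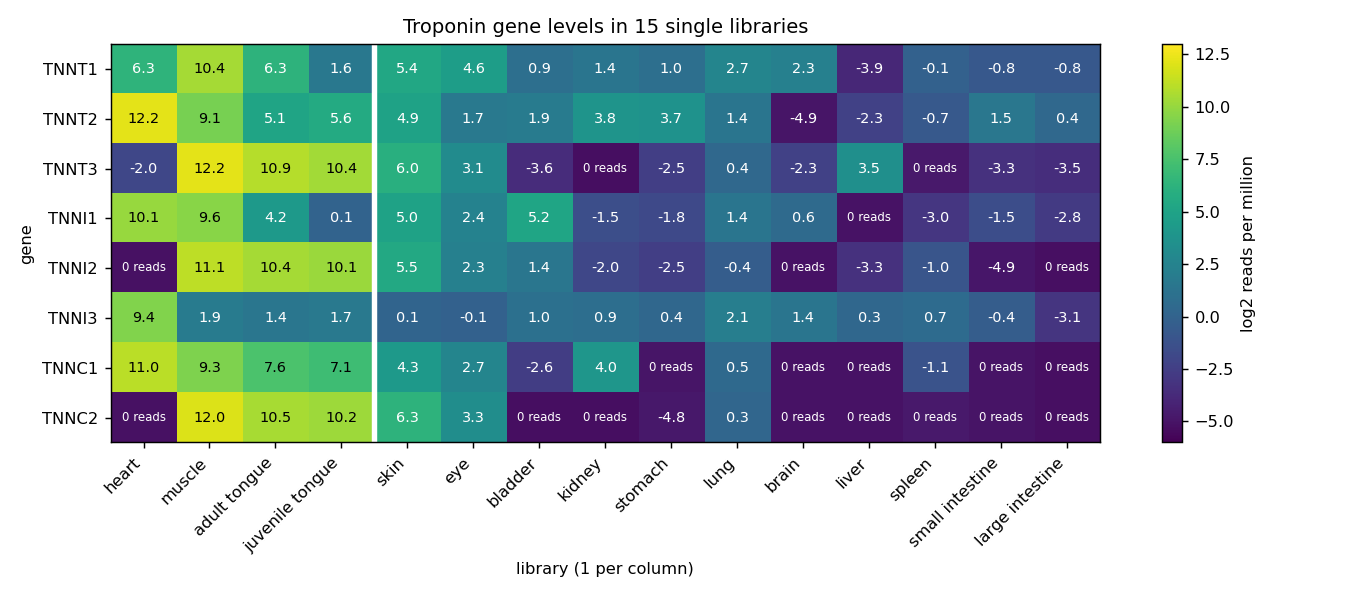
Log2 CPM of the 8 troponin genes (rows) in 15 single libraries (columns), with the 4 striated libraries to the left of the white line and cells without reads marked. Heart is high for *TNNT2*, *TNNI1*, *TNNI3* and *TNNC1* and holds no reads of *TNNI2* and *TNNC2*, while muscle is high for every gene except *TNNI3*.

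Each of the 8 genes was highest in heart or in muscle among the 15 single libraries. For comparison, 4.27% of the 18904 genes with at least 10 reads in 1 of these libraries were highest in heart and 4.10% in muscle. With the 2 tongues counted as well, the share was 15.7%. The highest striated level exceeded the highest level elsewhere by 30.5-fold for *TNNI1* at the low end and by 157-fold for *TNNI3* at the high end. Troponin genes together took 1.58% of all reads on genes in muscle, 0.943% in heart, 0.575% in the adult tongue and 0.465% in the juvenile tongue. In the 11 other tissues this share was at most 0.0356%, in skin.

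Heart carried a cardiac set of troponins that included the slow skeletal troponin I. *TNNT2*, the cardiac troponin T, had a log2 level of 12.19 in heart (146426 reads), 9.14 in muscle, 5.65 in the juvenile tongue and 5.13 in the adult tongue. It made up 98.3% of all troponin T reads in heart. *TNNC1*, the calcium sensor of heart and slow fibres, had a log2 level of 11.01 in heart (64812 reads), 9.35 in muscle, 7.60 in the adult tongue and 7.14 in the juvenile tongue. Heart was the highest library for both genes, and *TNNC1* was the only troponin C gene with reads there, since *TNNC2* had 0 of 64812 troponin C reads, which allows a share of up to 0.00463%.

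Troponin I was divided between both of its non-fast genes in heart. *TNNI1*, the slow skeletal gene, had a log2 level of 10.09 in heart (34253 reads) and 9.63 in muscle (22730 reads). *TNNI3*, the cardiac gene, had a log2 level of 9.42 in heart (21500 reads) and 1.87 in muscle (105 reads). The heart of this 22 dpp animal therefore held 1.59 reads of *TNNI1* per read of *TNNI3* (95% interval, 1.57 to 1.62), or 61.4% and 38.6% of its troponin I reads. In muscle the same read ratio was 216 (179 to 265). These are ratios of reads, and the ratio of transcripts was not determined. *TNNI2*, the fast skeletal gene, had no read in heart.

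Muscle carried the fast set together with the slow set and cardiac troponin T. *TNNT3*, the fast skeletal troponin T, had a log2 level of 12.20 in muscle (135247 reads) and -1.97 in heart (8 reads). *TNNI2* had a log2 level of 11.08 in muscle (62103 reads) and *TNNC2*, the fast skeletal calcium sensor, 11.99 (116738 reads), against 0 reads of each in heart. *TNNT1*, the slow skeletal troponin T, had a log2 level of 10.44 in muscle (39812 reads) and 6.32 in heart (2506 reads). Within troponin T, *TNNT3* took 70.7% of the reads in muscle, *TNNT1* 20.8% and *TNNT2* 8.45%.

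**Figure D2:**
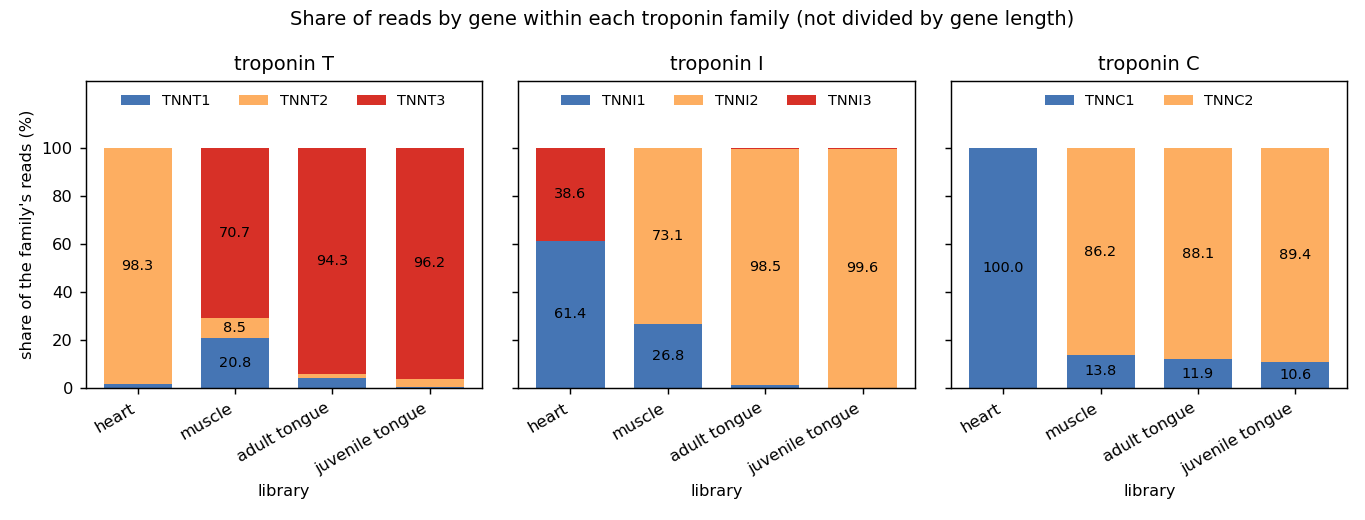
Share of reads (percent) held by each gene within the troponin T, troponin I and troponin C families in heart, muscle, adult tongue and juvenile tongue, 1 library each, without division by gene length. *TNNT2* takes 98.3% of troponin T reads in heart, while *TNNT3* takes 70.7% in muscle, 94.3% in the adult tongue and 96.2% in the juvenile tongue.

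Between heart and muscle, 2 of the 8 genes were at least 4-fold higher in heart and 4 at least 4-fold higher in muscle, against 6.23% and 7.67% of the 15510 genes with at least 10 reads in 1 of the 2 libraries. *TNNI3* was 187-fold higher in heart (155 to 229) and *TNNT2* 8.29-fold higher (8.16 to 8.43). *TNNT1* was 17.4-fold higher in muscle (16.7 to 18.1) and *TNNT3* 18469-fold higher (9373 to 42779). Against a limit of 3 reads in heart, *TNNI2* was at least 22615-fold higher in muscle and *TNNC2* at least 42509.8-fold higher. *TNNC1* was 3.18-fold higher in heart (3.13 to 3.23) and *TNNI1* 1.38-fold higher (1.36 to 1.40), so neither passed the 4-fold limit. The median gene was 0.19 higher in heart on the log2 scale, next to 0.46 for *TNNI1*. There is no replicate of either tissue, and the difference between these 2 libraries has no test.

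The partners of troponin on the thin filament divided less evenly. Of the 10 genes of the thin filament list (actins, tropomyosins, nebulin and end-capping proteins), 6 were at least 4-fold lower in heart than in muscle and none was at least 4-fold higher, with a median log2 difference of -4.71 against 0.19 for all genes. The 6 were *ACTA1*, *TPM2*, *TPM3*, *NEB*, *TMOD4* and *LMOD3*. *ACTC1*, the cardiac actin, had similar log2 levels of 12.25 in heart and 12.13 in muscle. *TPM1*, the tropomyosin of heart and fast fibres, stood at 11.80 and 11.37. In the same pair all 5 fast fibre genes found of 10 listed (*MYL1*, *MYLPF*, *ACTN3*, *ATP2A1* and *CASQ1*) were lower in heart, as were 2 of the 7 slow fibre genes found of 9 listed (*MYBPC1* and *TPM3*).

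Genes of developing muscle were mostly higher in the muscle library than in the tongues. Of the 7 found of 10 listed, 5 were at least 4-fold higher in muscle than in the adult tongue and 6 than in the juvenile tongue, against 14.7% and 19.2% of all genes tested. The median log2 differences were 4.17 and 3.94, against 0.30 and 0.47 for all genes. Between heart and muscle 1 (*MYL4*, an atrial and embryonic light chain) was at least 4-fold higher in heart and 5 in muscle, against 6.23% and 7.67% of genes. *MYOD1*, which commits cells to the muscle lineage, had a log2 level of 7.42 in muscle, 5.44 in the adult tongue and 4.05 in the juvenile tongue. *MYOG*, which drives myoblast differentiation, was at 7.41, 4.02 and 4.19 in the same order. *PAX7*, a marker of muscle stem cells, was at 4.44, -0.48 and 0.50. *MYF5*, an early muscle regulator, was at 4.43, 0.26 and 0.50. Muscle was the highest of the 3 libraries for each of these 4 genes. *MYF6*, a regulator of maturing fibres, was not, with 6.48 in muscle, 6.81 in the adult tongue and 5.35 in the juvenile tongue.

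In both tongues most reads of each troponin family came from the fast gene. *TNNT3* had a log2 level of 10.88 in the adult tongue (23515 reads) and 10.39 in the juvenile tongue (15210 reads). *TNNI2* had a log2 level of 10.43 and 10.11, and *TNNC2* a log2 level of 10.49 and 10.21, in the same order. The fast gene took 94.3% of troponin T reads, 98.5% of troponin I reads and 88.1% of troponin C reads in the adult tongue, and 96.2%, 99.6% and 89.4% in the juvenile tongue. Muscle exceeded the adult tongue by 2.51-fold (2.48 to 2.55) for *TNNT3*, 1.57-fold (1.55 to 1.60) for *TNNI2* and 2.84-fold (2.79 to 2.88) for *TNNC2*, none of which reached 4-fold. The keratin *KRT4* differed between these libraries as given above, and the part of lining cells in the tongue levels was not tested.

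The slow troponins set muscle and the tongues apart. *TNNT1* had a log2 level of 10.44 in muscle, 6.31 in the adult tongue (990 reads) and 1.63 in the juvenile tongue (35 reads). *TNNI1* had a log2 level of 9.63 in muscle, 4.20 in the adult tongue (230 reads) and 0.08 in the juvenile tongue (12 reads). Muscle was thus 17.6-fold (16.5 to 18.7) above the adult tongue for *TNNT1* and 43.2-fold (37.9 to 49.4) for *TNNI1*. Against the juvenile tongue the folds were 450 (323 to 646) and 749 (429 to 1450). *TNNT2* was 16.1-fold (14.6 to 17.7) higher in muscle than in the adult tongue and 11.3-fold (10.3 to 12.3) higher than in the juvenile tongue.

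In all, 3 of the 8 genes (*TNNT1*, *TNNT2* and *TNNI1*) were at least 4-fold higher in muscle than in the adult tongue, against 14.7% of the 15663 genes tested. Against the juvenile tongue there were 4, with *TNNC1* at 4.63-fold (4.39 to 4.87), and 19.2% of the 15667 genes tested. None was 4-fold lower in muscle than in either tongue, against 10.9% and 10.7% of genes. At 2-fold, 6 of the 8 genes were higher in muscle than in the adult tongue. Tissue, age and animal changed together between muscle and the tongues and cannot be told apart.

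The adult and juvenile tongues differed in the same slow genes. *TNNT1* was 25.6-fold (18.3 to 37) and *TNNI1* 17.4-fold (9.75 to 34.1) higher in the adult tongue, and these 2 were the only troponin genes past 4-fold, against 3.95% of the 14283 genes tested. None was 4-fold lower, against 2.82% of genes. The 3 fast genes were higher in the adult tongue by 1.21-fold to 1.40-fold, and *TNNC1* by 1.38-fold (1.30 to 1.47). *TNNT2* went the other way, with the juvenile tongue 1.43-fold higher (1.26 to 1.62). *TNNI3* was low in both, at 34 and 37 reads, and its interval included equal levels (0.507 to 1.36). The median gene was 0.19 higher in the adult tongue on the log2 scale, and at -0.005 with scaling to the 75th percentile. The 9 skeletal markers found had a median log2 difference of 1.11 and the 5 fast fibre genes found of 0.26. None of either list passed 4-fold. Each tongue is 1 library, so age and animal changed together and cannot be told apart.

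**Figure D3:**
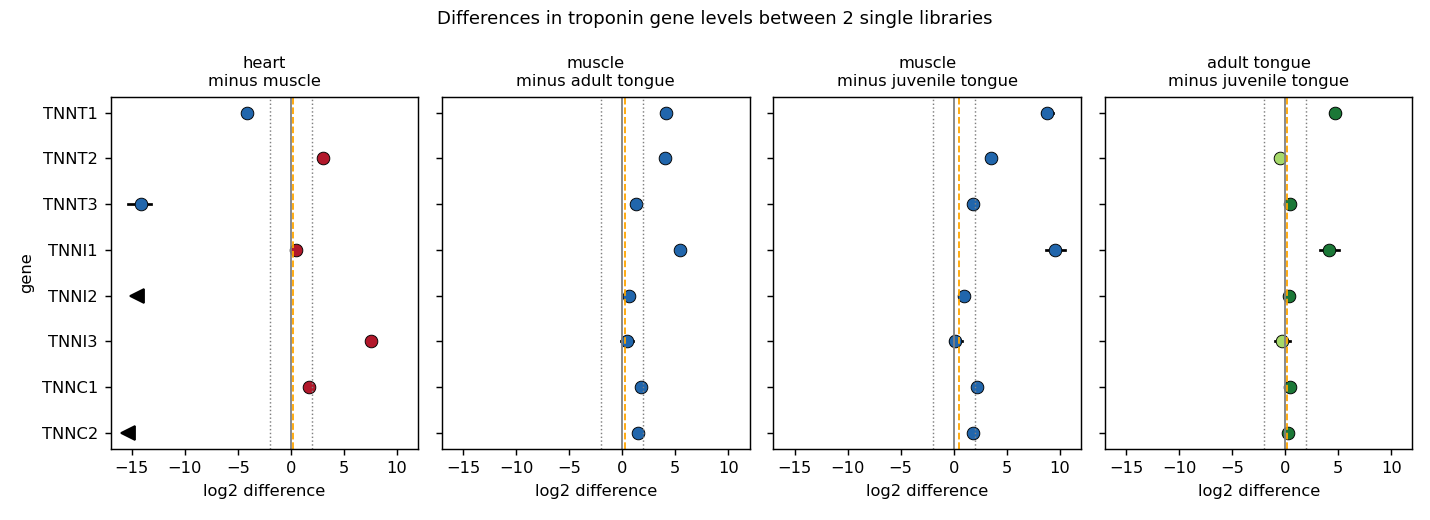
Log2 difference of each troponin gene (rows) between 2 single libraries, with 95% counting intervals as bars where they exceed the point, bounds against 3 reads as triangles, dotted lines at 4-fold and a dashed orange line at the median of all genes tested. Point colour marks the higher library (red heart, blue muscle, dark green adult tongue, light green juvenile tongue), and *TNNT1* and *TNNI1* are the only genes past 4-fold between the tongues.

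Other genes of slow fibres followed in part. Of the 7 slow fibre genes found, 5 were at least 4-fold higher in muscle than in the adult tongue and 6 than in the juvenile tongue, with median log2 differences of 4.41 and 5.43 against 0.30 and 0.47 for all genes. Of the 5 fast fibre genes found, 1 and 2 were at least 4-fold higher in muscle, and *ATP2A1*, the fast calcium pump, was 5.01-fold higher in the adult tongue. Between the tongues, 2 of the 7 slow genes passed 4-fold, and both were higher in the adult. *MYL3*, the slow and ventricular myosin light chain, had 315 reads in the adult tongue and 2 in the juvenile tongue. *MYH7B*, a slow-type myosin heavy chain, had 15 reads and 0 reads. The remaining 5 (*ATP2A2*, *CASQ2*, *MYBPC1*, *MYOZ2* and *TPM3*) differed by less than 4-fold, and none of the 5 fast genes differed by 4-fold.

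One gene of the cardiac list moved with these slow genes. *MYH6*, a myosin heavy chain of heart, had a log2 level of 7.95 in the adult tongue (3095 reads) and 3.56 in the juvenile tongue (134 reads). *MYL7*, *NPPA*, *NPPB* and *TBX5* were at 0 reads in both tongues. *NKX2-5* was at 3.84 in the adult and 3.17 in the juvenile tongue, *PLN* at 4.67 and 3.92 and *RYR2* at 2.56 and 0.82. *MYBPC3* was at -1.06 in the adult tongue and at 0 reads in the juvenile tongue. *MYH7*, a close relative of *MYH6*, was not found by symbol, so the assignment of reads to *MYH6* within the myosin heavy chain family is uncertain.

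**Figure D4:**
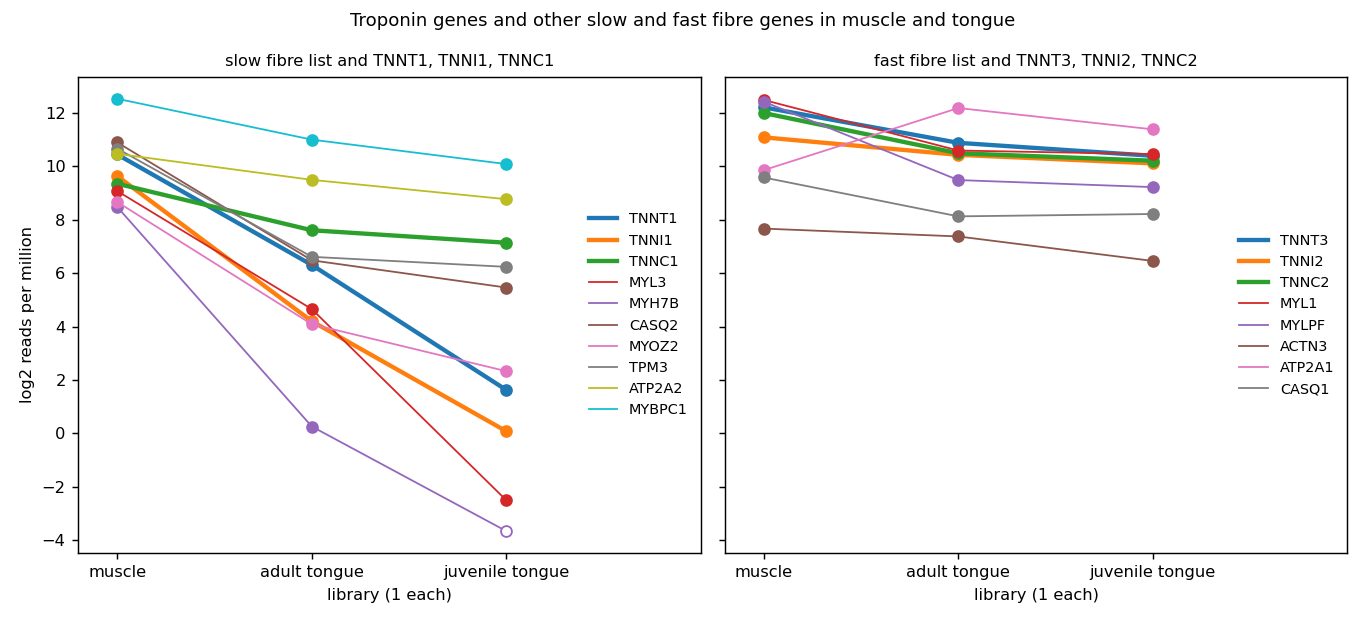
Log2 CPM in muscle, adult tongue and juvenile tongue (1 library each), for slow fibre genes with *TNNT1*, *TNNI1* and *TNNC1* (left) and fast fibre genes with *TNNT3*, *TNNI2* and *TNNC2* (right), where the open circle marks 0 reads. *TNNT1* falls from 10.44 in muscle to 6.31 and 1.63 in the tongues, next to *MYL3* at 9.07, 4.65 and -2.50, while the fast troponins stay between 10.11 and 12.20.

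The troponin genes that are expressed together in fast fibres were the most alike over the 15 libraries. Pearson correlations of log2(CPM + 1) were 0.990 for *TNNI2* with *TNNC2*, 0.979 for *TNNT3* with *TNNC2* and 0.970 for *TNNT3* with *TNNI2*. The neighbours *TNNT2* and *TNNI1* had a correlation of 0.828, and *TNNI3* and *TNNT1*, although 89 bp apart, of 0.407. *TNNT2* and *TNNC1*, on different chromosomes, reached 0.921. These are descriptions over tissues of mostly 1 animal and carry no test.

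Among 18902 genes compared, the gene most like *TNNC2*, *TNNI2* and *TNNT3* was in each case *SLN*, sarcolipin, an inhibitor of the muscle calcium pump (correlations of 0.998, 0.992 and 0.980). It stood at a log2 level of 10.27 in muscle, 9.10 in the adult tongue, 8.44 in the juvenile tongue and -4.97 in heart. Also within the top 3 were *MYLPF* for *TNNC2*, *PGAM2* for *TNNT3*, *LOC118853124* for *TNNI2* and *TNNC2*, and *TNNC2* itself for *TNNT3* and *TNNI2*. *TNNC1* was most like *LOC118852229*, *SLC25A4* and *TRIM72* (0.954 to 0.959). *TNNT1* was most like *ZNF106*, *CAV3* and *PPP2R3B* (0.907 to 0.938), *TNNT2* like *HSPB3*, *LOC118835515* and *LOC118852233* (0.931 to 0.938) and *TNNI1* like *MYO18B*, *C5H12orf73* and *LOC118833323* (0.910 to 0.916). *TNNI3* was most like 3 uncharacterised loci that were themselves low, *LOC118850030*, *LOC118843880* and *LOC118828757* (0.968 to 0.976).

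Outside the 4 striated libraries, skin held most of the troponin reads. In this library of Sandy, *TNNC2* had a log2 level of 6.29 (2253 reads), *TNNT3* 6.0, *TNNI2* 5.47, *TNNT1* 5.38, *TNNI1* 4.98, *TNNT2* 4.92 and *TNNC1* 4.28. Only *TNNI3* was low there, at 0.10 (31 reads). Skeletal markers moved with them, with all 9 found above 3 reads in skin and a summed level of 395 CPM, against 21679 in muscle. The eye library had the same 7 genes at log2 levels between 1.70 and 4.61, with skeletal markers at 65.9 CPM and all 9 above 3 reads. In the lung they lay between -0.38 and 2.68, with skeletal markers at 42.5 and *MYOD1* and *MYOG* at 0 reads. Whether muscle fibres were sampled with these tissues was not tested.

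Bladder and stomach held reads of several troponin genes. In bladder, *TNNI1* had a log2 level of 5.17 (1281 reads), above the adult tongue at 4.20, with 131 reads of *TNNT2*, 96 of *TNNI2*, 71 of *TNNI3* and 68 of *TNNT1*. *TNNC2*, *MYOD1* and *MYOG* were at 0 reads there, *TNNT3* at 3 and *TNNC1* at 6. Skeletal markers summed to 45.2 CPM in bladder, with 5 of the 9 found above 3 reads, among them *CASQ1* (714 reads) and *ACTA1* (619 reads). Smooth muscle markers were highest in this library, at 27644 CPM over 7 genes. In stomach, *TNNT2* had a log2 level of 3.70 (361 reads) with 54 reads of *TNNT1*, 36 of *TNNI3*, 8 of *TNNI1*, 5 each of *TNNT3* and *TNNI2*, 1 of *TNNC2* and 0 of *TNNC1*. Smooth muscle markers stood at 4708 CPM there, second to bladder.

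*TNNT2* and *TNNC1* were found in every kidney. Over the 9 pouch young kidneys *TNNT2* had a lowest log2 level of 3.53, a median of 4.79 and a highest of 5.62, and *TNNC1* 3.56, 5.11 and 6.33. *TNNC2* had no read in any of the 9, and *MYH6*, *MYL7*, *NPPA*, *NPPB*, *NKX2-5* and *TBX5* were at 0 reads in all 9. *RYR2*, a calcium release channel of heart and neurons, was found in 9 of 9 kidneys, with a median of 5.09, as was *MYBPC3*, cardiac myosin-binding protein C, with a median of 1.14. *PLN*, phospholamban, had reads in 7 of 9. The 9 cardiac markers together summed to between 9.53 and 130 CPM in kidneys (median 38.3), and their part in the *TNNT2* and *TNNC1* levels was not tested. The highest of the 8 brains and 83 livers reached only 0.21 for *TNNT2* and -0.47 for *TNNC1*, so every kidney was above every one of them for both genes. This held for 2 of the 8 troponin genes and for 1.71% of the 18797 genes with at least 10 reads in 1 of these libraries. One kidney held only 308137 reads, and its values rest on 15 reads of *TNNT2* and 6 of *TNNC1*.

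*TNNT1* and *TNNI3*, the neighbours on chromosome 2, were found in every brain. *TNNT1* was found in 8 of 8 pouch young brains, with a lowest log2 level of 2.27, a median of 4.07 and a highest of 5.31. *TNNI3* was found in 8 of 8, at 0.33, 2.74 and 4.35. *TNNT3* had reads in 7 of 8, with at most 19, and *TNNI1* in 5, with log2 levels up to 3.38 (171 reads) and 2.72 (137 reads). *TNNT2* and *TNNC1* had reads in 3 brains each, *TNNI2* in 1 and *TNNC2* in none. Neither gene was particular to brain. *TNNI3* was also found in all 9 kidneys (median 4.01) and all 83 livers. *TNNT1* was found in all 9 kidneys (median 2.56), in 31 of 32 pouch young livers and in every juvenile and adult liver. These neighbours lie 89 bp apart on the same strand. Reads running on from *TNNI3* into *TNNT1* therefore cannot be told apart from those that start within *TNNT1*, whatever the strand setting of the counting. That setting is not given in the sources used here.

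Livers were the only tissue with replicates at all 3 stages (pouch young, juvenile and adult). Of the 8 troponin genes, 2 (*TNNT3* and *TNNI2*) were higher and 2 (*TNNT1* and *TNNI3*) lower in pouch young than in adult livers, by limma over 19109 genes (Benjamini-Hochberg adjusted p under 0.05, with a log2 difference of 1 or more). Among all genes tested 22.6% were higher and 9.4% lower. Each liver carries its own animal's name, so p-values refer to the spread between animals, some of which are mother and offspring or share a mother.

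*TNNT3*, the fast skeletal troponin T, was found in all 32 pouch young livers, with a lowest log2 level of 2.29, a median of 3.72 and a highest of 6.25 (240 reads). In the 44 adult livers it had a median of -3.90 and a highest value of 2.17, and 16 of them had no read. Every pouch young liver was above every adult liver, which held for 0.513% of genes tested and for no other troponin gene. The reverse, every pouch young liver below every adult liver, held for 0.45% of genes and for none of the 8. The log2 difference was 7.36 (SE 0.28), with an adjusted p of 7.44e-39 (limma, Benjamini-Hochberg). The exact size rests on the value of 0.9 read that the table gives to genes without reads, and it was 6.38 on the log2(CPM + 0.1) scale. Within kits the difference was 6.82 in NEXTFLEX libraries (7 pouch young and 15 adults) and 7.56 in NEBNext libraries (25 and 29). For 6 pouch young the mother was among the adult livers, and the offspring was higher by 1.30 to 8.49 on the log2 scale in 6 of 6 pairs. For scale, the liver of Sandy had a *TNNT3* log2 level of 3.46 (329 reads), next to 12.20 in muscle of the same animal.

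Several skeletal muscle genes other than *TNNT3* had few or no reads in the same livers, though not all. *TNNC2*, its companion in fast fibres, had reads in 3 of 32 pouch young livers, with at most 4, and *TNNC1* in 4, with at most 2. The 9 skeletal markers summed to between 0.818 and 22.3 CPM in pouch young livers (median 4.68) and to between 0.189 and 21.1 in adult livers (median 1.61). *ACTA1*, the skeletal actin, was at 0 reads in 30 of 32 pouch young livers, and *CKM*, muscle creatine kinase, in 26, with at most 2 reads. Other skeletal markers went the other way. *RYR1* was above 3 reads in all 32, with a median log2 level of 1.67 and at most 221 reads. *MYBPC1* was at 0 reads in only 1 (at most 161 reads) and *ATP2A1* in 3 (at most 38 reads).

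*TNNI2*, the fast troponin I on the far side of *LSP1*, had fewer reads in pouch young livers than *TNNT3* (medians of 2 and 271). It was called higher in pouch young than in adults as well. It had reads in 25 of 32 pouch young livers, with a median log2 level of -2.73 and at most 65 reads, and in 11 of 44 adult livers. The log2 difference was 2.11 (SE 0.37), with an adjusted p of 4.94e-07 (limma). Its size rests on the value given to 0 reads, since most adult livers had none. It was 2.70 in NEBNext libraries and 0.38 in NEXTFLEX libraries, where the adjusted p was 0.647 (limma), so it was called in NEBNext libraries and not in NEXTFLEX libraries. That difference between kits was not tested. In the 6 pairs of mother and pouch young, the *TNNI2* value was higher in the offspring in 2 and lower in 4. Of the lower pairs, 2 had 0 reads in both animals, so that their values differ by depth alone. The tally therefore gives no direction.

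One adult liver stood apart in both genes. The liver of Puku held 53 reads of *TNNT3*, 36 of *TNNI2*, 42 of *TNNC2* and 8 of *TNNC1*, whereas the other 43 adult livers held at most 15, 7, 5 and 4. Skeletal markers were also high there, with 67 reads of *CKM* and a summed level of 21.1 CPM, against at most 6.37 in the other adults. Without this liver the log2 differences were 7.5 for *TNNT3* and 2.25 for *TNNI2*.

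*TNNT1* and *TNNI3* changed in the opposite direction. *TNNI3*, the cardiac troponin I, had log2 levels of -2.10, 1.44 and 4.15 (lowest, median and highest) in pouch young livers and 1.81, 3.32 and 4.52 in adult livers. The groups overlapped, and the log2 difference was -2.11 (SE 0.21) with an adjusted p of 4.97e-15 (limma). *TNNT1* had log2 levels of -4.42, -0.82 and 1.15 in pouch young and 0.11, 1.15 and 3.07 in adults, with a log2 difference of -2.54 (SE 0.26) and an adjusted p of 3.15e-14 (limma). Within kits the differences were -2.07 and -2.10 for *TNNI3* and -2.58 and -2.49 for *TNNT1* (NEXTFLEX, then NEBNext). In the 6 pairs both genes were lower in the pouch young than in its mother in 6 of 6.

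The other 4 genes were not called. *TNNT2* had medians of -2.32 in pouch young and -2.62 in adult livers and a log2 difference of 0.43 (SE 0.26, limma adjusted p = 0.134). *TNNI1* differed by 0.73 (SE 0.24, limma adjusted p = 0.00638), below the required log2 difference of 1. *TNNC1* and *TNNC2* were without reads in most livers, and a difference was not detectable at this depth.

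**Figure D5:**
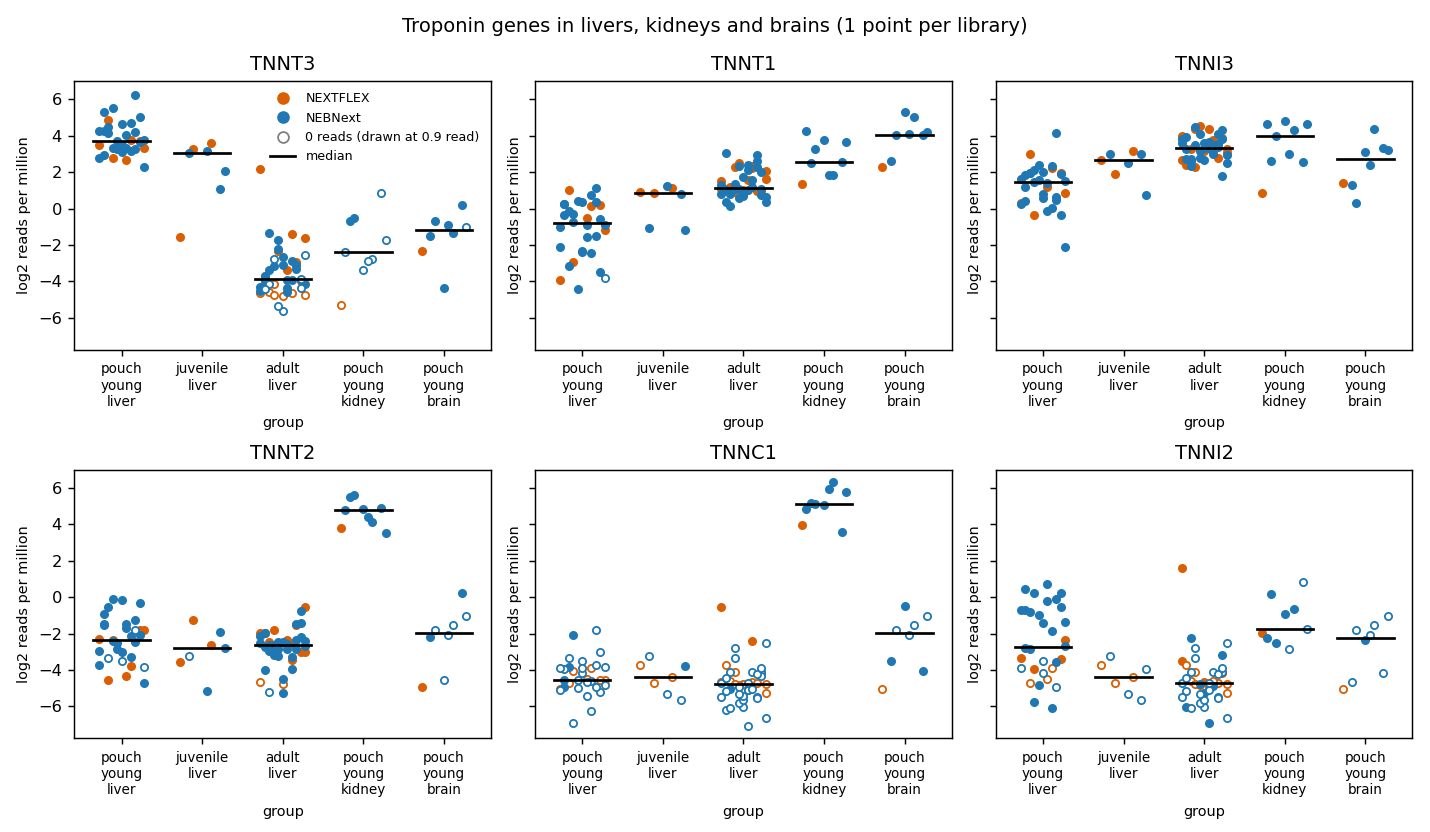
Log2 CPM of 6 troponin genes in livers by stage (32 pouch young, 7 juvenile, 44 adult), pouch young kidneys (9) and pouch young brains (8), with 1 point per library, colour for library kit, open circles for 0 reads and a line at the median. Every pouch young liver lies above every adult liver for *TNNT3*, and every kidney lies above all livers and brains for *TNNT2* and *TNNC1*.

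In juvenile livers *TNNT3* was the only troponin gene called against adults. *TNNT3* had log2 levels of -1.57, 3.58, 3.24, 2.08, 3.17, 3.04 and 1.09 in the 7 juveniles (replicates 1 to 7), the lowest being the liver of Sheila. It was higher in juveniles than in adults by 5.59 (SE 0.50, limma adjusted p = 1.19e-15) and lower than in pouch young by 1.77 (SE 0.51, limma adjusted p = 0.0119). Without the liver of Sheila the latter difference was 1.16 (limma adjusted p = 0.121) and was not called, while that to adults was 6.20. *TNNI2* had 0 reads in 7 of 7 juvenile livers and was higher in pouch young by 1.98 (limma adjusted p = 0.0288). Every juvenile value is thus the value given to 0 reads, from -5.63 to -3.24 with depth, and the size of the difference rests on it. Among genes tested, 10.1% were called higher and 5.46% lower in juvenile than in adult livers, and 7.87% higher in pouch young than in juvenile livers. *TNNT1* and *TNNI3* had juvenile medians of 0.85 and 2.64 and were lower in pouch young than in juveniles by 1.51 and 1.19 on the log2 scale (limma adjusted p = 0.0206 and 0.0209), with 2.56% of genes called lower in that comparison. Neither was called within either kit alone, and without the liver of Sheila *TNNT1* was not called either (-1.42, limma adjusted p = 0.0505). In the 6 pairs of mother and juvenile, *TNNI3* was lower in the juvenile in 6 (median difference -1.17), *TNNT1* in 5 (median -1.27) and *TNNT3* higher in 5 (median 6.15).

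The genes beside *TNNT3* and *TNNI2* on chromosome 6 were called higher in pouch young than in adult livers too (limma adjusted p = 3.16e-18 for *MRPL23*, 0.000125 for *LSP1* and 2.46e-23 for *SYT8*). Among all genes tested 22.6% were called higher, and an effect of the region was not tested. Values of the genes beside *TNNT2*, *TNNI1*, *TNNC1* and *TNNC2* are not given here. The log2 difference was 1.65 (SE 0.14) for *MRPL23*, a mitochondrial ribosomal protein gene, 1.27 (SE 0.30) for *LSP1*, a leukocyte protein gene, and 3.80 (SE 0.26) for *SYT8*, a synaptotagmin gene. In NEXTFLEX libraries alone *LSP1* was at -0.33 and was not called. The locus that the study names *H19*, an imprinted non-coding RNA (*LOC118853838*, 282652183 to 282655843 on the same chromosome) begins beyond *MRPL23*, 58825 bp from *TNNT3*, and was looked at after its values were seen. Its log2 levels in the same 7 juveniles were -0.40, 11.06, 11.60, 10.15, 11.31, 10.97 and 6.48. The liver of Sheila was the lowest juvenile for both *TNNT3* and *H19*, and replicate 7 was next in both. *LSP1* had the same order, at 1.43 in Sheila and 1.95 in replicate 7. *MRPL23* was lowest in Sheila (4.47) with another replicate next, and *SYT8* was lowest in replicate 7 (-3.90). The study reads the liver of Sheila as that of a weaned animal. A link between *TNNT3* and *H19* was not tested, and the share of all genes with this order was not taken. Around *TNNI3* and *TNNT1* on chromosome 2, *DNAAF3* was higher in pouch young by 1.01 (SE 0.29), though not called in NEXTFLEX libraries alone (limma adjusted p = 0.0796), and *PPP1R12C* differed by 0.01 (SE 0.15).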

How the data were processed

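Poly(A)-enriched, strand-specific libraries were made with NEXTFLEX or NEBNext kits, the former for all libraries of Sandy, Puku and Sheila. Per the labels, the authors trimmed reads with Trim Galore (0.6.7) and mapped them with HISAT2 (2.2.1). They quantified uniquely mapped reads per gene of mTriVul1.pri in SeqMonk. The deposited log2 values are named RPKM, but were found to be CPM of the library total without division by length, with 0.9 read in place of 0. Whole reads were recovered from them (100% of the values checked, under 50 reads, were whole within 0.02).

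Groups followed the labels, and 2 libraries with contradictory labels entered no comparison. The 2 pouch young livers removed in the study's methods were left out. Single libraries were compared by folds with exact binomial intervals, shares with exact Clopper-Pearson intervals, without tests, and called at 4-fold among genes with at least 10 reads in 1 library. Livers were compared with limma (3.58.1) in R (4.3.3) on the log2 values of 19109 genes with reads in at least 7 livers, 1 fit over 3 stages, with Benjamini-Hochberg adjustment. The method was tested on simulated data, with changes placed only in genes above a minimum mean level in livers. *TNNT2*, *TNNI1*, *TNNI2*, *TNNC1* and *TNNC2* lay below that level, so the simulation does not cover them. Named were the 8 genes, the list members, the 3 genes most like each by Pearson r and the genes directly beside each. Members, partner lists and markers were chosen with earlier results of these data known. Of the listed genes, those not found by symbol (among them *MYH7*, *MYL2*, *MYH1* and *PVALB*) were not analysed here. Alternatives covered scaling, pseudocount, filter, fold, kit and samples. Sequences, exon lengths and reads per length were not used here. Python (3.11.15) with scipy (1.17.1) was used for the rest.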

Additional observations from a re-analysis of the deposited data

Results flagged for a closer look

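The 2 libraries whose labels contradict each other on the tissue were used in no comparison, and both held troponin reads above the 3 that a count of 0 allows. In the first, *TNNT2* had a log2 level of 4.11 (411 reads), *TNNC1* 3.69 (307 reads), *TNNI3* 3.58 (284 reads), *TNNT1* 2.91 (179 reads), *TNNI2* -0.87 (13 reads) and *TNNI1* -1.76 (7 reads). In the second, *TNNI3* had a log2 level of 4.22 (152 reads), *TNNT3* 4.06 (136 reads), *TNNT1* 2.81 (57 reads) and *TNNT2* 0.56 (12 reads). Each is a single library, and neither was assigned to a tissue from these values. No troponin gene with reads in every juvenile liver, kidney or brain had a library far from the others of its group by Dixon's criterion.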

How the results depend on the processing

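Scaling to reads on genes raised the log2 levels in heart, muscle and tongues by 0.13 to 0.28, and scaling to the 75th percentile by 0.01 to 0.41. No difference of at least 4-fold between 2 single libraries changed sign under any alternative. However, 34 of 96 alternative differences and 45 of 64 alternative levels lay outside the counting interval of the main value. With the 75th percentile the median log2 difference went from 0.19 to -0.04 for heart minus muscle. For adult minus juvenile tongue it went from 0.19 to -0.005. Small folds therefore depend on the scaling, which the counting intervals do not cover. At 2-fold, 6 genes rather than 3 were higher in muscle than in the adult tongue. In livers, 1 troponin gene was called higher in pouch young with values below 0 set to 0 and 1 in NEXTFLEX libraries alone, *TNNI2* being the gene lost in both. limma-voom on the recovered reads added *TNNI1*, at 1.07. Over all genes, 4310 were higher in pouch young, and 2299 with values below 0 set to 0. Signs turned only for genes that were not called. *TNNT2* was -0.34 in NEXTFLEX libraries, *TNNC1* -0.0030 with a pseudocount of 0.1 CPM, and *TNNC2* -0.042 with values below 0 set to 0 and -0.078 with that pseudocount. *TNNT3*, *TNNT1* and *TNNI3* kept their calls against adults under all 13 alternatives, with log2 differences of 3.81 to 7.56, -2.58 to -1.26 and -2.12 to -2.01. Between pouch young and juvenile livers the 4 calls were less stable, with 2 left with values below 0 set to 0, 0 in NEXTFLEX libraries, 2 in NEBNext libraries, 3 with the 2 removed livers, 2 without the liver of Sheila and 1 without those of Sandy, Puku and Sheila. *TNNT3* was lost in NEXTFLEX libraries, with the removed livers and in both settings without Sheila, and *TNNI2* in NEXTFLEX libraries and with values below 0 set to 0. Between juveniles and adults *TNNT3* stayed the 1 call throughout. The settings without the liver of Puku or Sheila, the juvenile alternatives and the mother-offspring pairs were chosen after seeing the data. Shares per exon length were not run, since exon lengths were not used here. No paired analysis was possible across all livers because replicate numbers do not pair animals and the mother was among the adults for only 6 of 32 pouch young. Depth limits the tongues for *TNNI1* and *TNNI3* (12 and 37 reads in the juvenile) and the livers for *TNNC1* and *TNNC2*.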
